A study of Mus musculus with 12 samples.

Results

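The genes of the cell cycle and of DNA replication were described in wounded mouse skin that had been treated with capsaicin (CAP) or with the carrier gel alone. A list of 54 genes was matched by symbol to the deposited tables of TPM (transcript abundance per gene length, scaled to one fixed total per library), which hold 55487 genes, and every one of the 54 was found. By the phase in which their products act, 19 were set apart as G1/S genes and 35 as G2/M genes.

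A dividing cell copies its DNA in S phase and separates the copies in mitosis, and many of the genes needed for each step are transcribed only shortly before it. G1/S genes load and drive the replicative helicase, supply deoxynucleotides and hold the polymerase on DNA, and they are controlled largely by E2F factors and the retinoblastoma protein family. G2/M genes build the spindle, condense and hold the chromosomes and drive mitotic entry and exit, and they are controlled largely by the MuvB complex with B-MYB and FOXM1. In healing skin, keratinocytes at the wound edge, fibroblasts, endothelial cells and some immune cells divide while the wound closes.

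Male C57BL/6JNarl mice, 6 weeks old, received 2 full-thickness punch wounds of 6 mm on the back. All wounds were given 200 µL of 25% Pluronic F127 gel once daily. By the labels, the gel held 10 µM CAP in the CAP-treated wounds and no CAP in the wounds called sham, so no unwounded or untreated skin enters here. RNA of whole wound tissue was sequenced at day 3 and at day 6, with 3 libraries in each of 4 groups (sham and CAP at each day). Markers of keratinocytes and of fibroblasts were expressed in every library.

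The labels number the libraries as replicates but do not say that each came from a separate mouse, so p-values measure the spread between libraries, which may in part be technical. TPM values sum to the same total in each of the 12 libraries and keep no trace of read number, so depth is unknown and no counting interval is given. In bulk tissue, fewer dividing cells and less RNA per dividing cell cannot be told apart. The column names of the tables carry one code for all day 3 libraries and another for all day 6 libraries, so whatever that code stands for and the day cannot be told apart. Replicate 2 of CAP at day 6 stood apart in composition, with 14.1% of its TPM in its 10 highest genes against 8.27% to 11.3% in the other libraries. For each phase, most counts at an unadjusted p under 0.05 and the medians that include it are also given without it, or as a range over libraries left out. Other counts that include it, such as those of genes without overlap, of markers and of the other gene lists, were not checked without it here.

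All 54 genes were detected in every library, the lowest value being 2.63 TPM. Their mean over the 12 libraries ran from 3.35 TPM for Cdc6, which loads the helicase onto origins, to 105 TPM for Pcna, the sliding clamp of the DNA polymerases. For a G1/S gene the highest library stood a median of 1.55 times above the lowest, and for a G2/M gene 2.03 times. Values below are listed for replicates 1, 2 and 3 in that order, and ± gives the SD over the 3 libraries.

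Promoter sequence was compared between both phases, because the labelled phases rest on the products' roles and the promoters hold letters that were not used to choose the genes. RefSeq windows of 250 bases before and 50 bases after the start (build GRCm38.p6, the assembly also called mm10) were found for 46 of the 54 genes. The letters searched on both strands were the cell cycle genes homology region, CHR (TTTGAA, with the variant TTCGAA), which MuvB complexes bind, the CCAAT box, which NF-Y binds, and an E2F set made of TTCCCGC, the related TTGGCGC and also TTCGCGC. The reverse of the CCAAT box, ATTGG, can share letters with TTGGCGC.

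CHR letters were present in 23 of 30 G2/M genes with a window (76.7%), in 3 of 16 G1/S genes (18.8%) and in 21.7% of all 27025 genes with a window. E2F letters were more frequent in the G1/S than in the G2/M genes, with 56.2% of the G1/S genes, 23.3% of the G2/M genes and 9.20% of all genes. CCAAT letters were common in both phases, at 62.5% of G1/S and 76.7% of G2/M genes against 41.1% of all genes. CHR and CCAAT letters stood together in 21 G2/M genes (70%), in 18.8% of the G1/S genes and in 8.61% of all genes. A match describes the letters and not a bound site.

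The 120 bases before the start are printed for 4 G2/M genes and 2 G1/S genes that show these letters, in capitals where CHR, CCAAT or E2F letters lie. Cdc20 is at chr4:118437344-118437463 (minus strand), Kif11 at chr19:37376262-37376381 (plus), Top2a at chr11:99024190-99024309 (minus), Mki67 at chr7:135716380-135716499 (minus), Mcm6 at chr1:128359706-128359825 (minus) and Rrm1 at chr7:102441575-102441694 (plus), all in GRCm38.p6 and read 5′ to 3′ toward the gene.
Cdc20: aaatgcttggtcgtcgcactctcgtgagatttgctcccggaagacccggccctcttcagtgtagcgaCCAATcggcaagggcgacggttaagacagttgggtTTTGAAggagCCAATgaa
Kif11: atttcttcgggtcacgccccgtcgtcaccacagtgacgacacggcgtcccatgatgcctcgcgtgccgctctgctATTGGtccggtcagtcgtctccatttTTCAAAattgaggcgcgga
Top2a: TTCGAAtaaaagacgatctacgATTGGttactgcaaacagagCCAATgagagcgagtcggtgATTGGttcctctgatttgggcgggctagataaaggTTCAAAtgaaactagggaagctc
Mki67: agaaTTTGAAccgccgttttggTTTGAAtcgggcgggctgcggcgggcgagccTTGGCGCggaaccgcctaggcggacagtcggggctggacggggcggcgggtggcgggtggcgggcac
Mcm6: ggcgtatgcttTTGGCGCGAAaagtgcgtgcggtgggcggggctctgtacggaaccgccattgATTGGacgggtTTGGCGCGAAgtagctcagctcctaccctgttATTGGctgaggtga
Rrm1: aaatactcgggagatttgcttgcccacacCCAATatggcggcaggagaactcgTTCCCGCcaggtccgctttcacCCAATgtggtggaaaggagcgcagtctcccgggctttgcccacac

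In Cdc20, Kif11 and Top2a the CHR letters nearest the gene began 18, 19 and 23 bases before the start, whereas Mki67 carried them farther out, at 98 bases, together with E2F letters at 67 bases. Mcm6 and Rrm1 held E2F and CCAAT letters and no CHR letters in these stretches. In Mcm6 the E2F letters of both strands lie on each other.

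**Figure D1:**
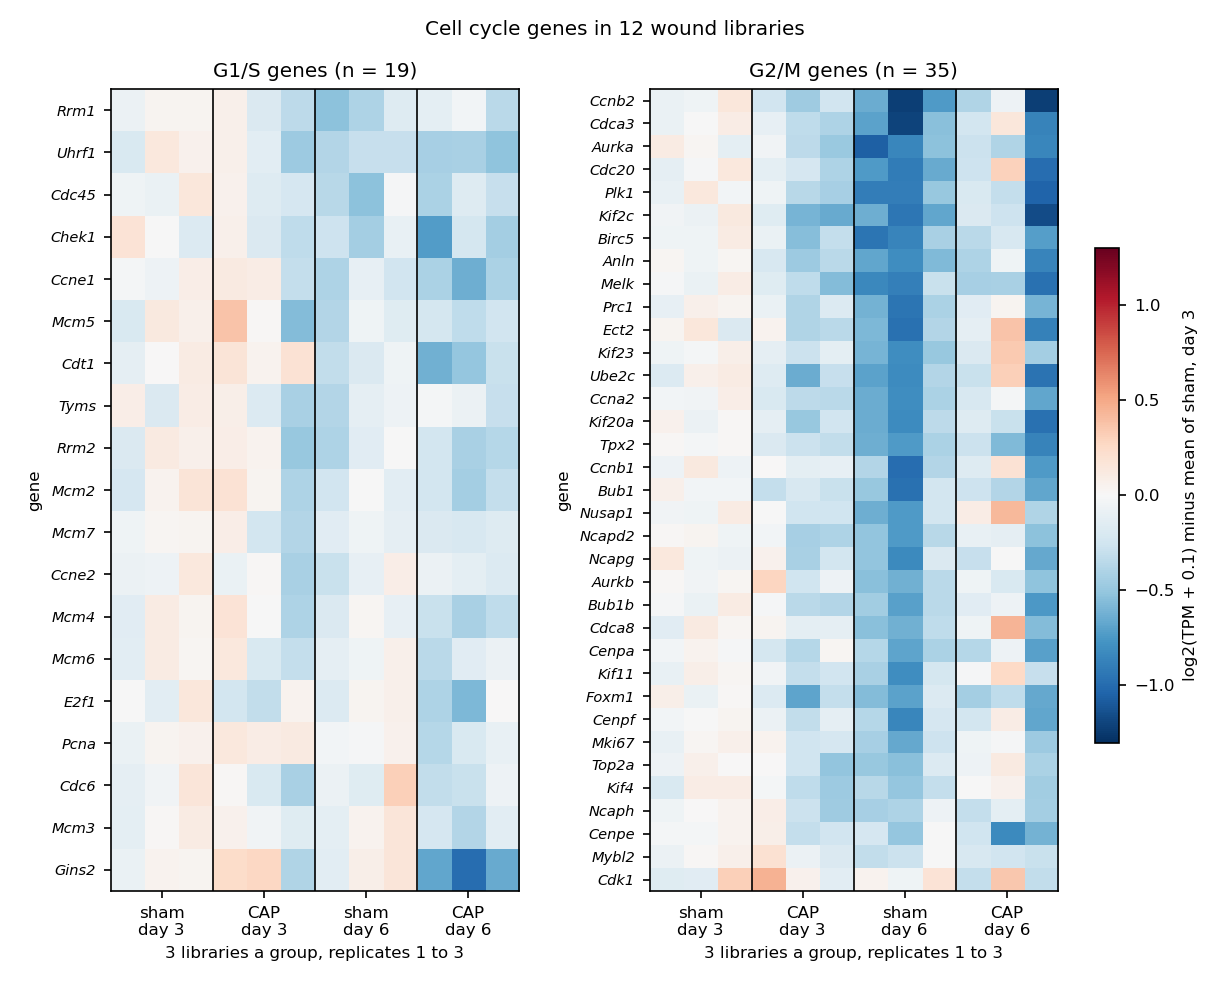
Heat map of the 19 G1/S genes (left) and 35 G2/M genes (right) in the 12 libraries, as log2(TPM + 0.1) minus the mean of the sham, day 3 libraries, red for higher and blue for lower. Genes are ordered by their day 6 minus day 3 difference in sham wounds, most of the G2/M panel is blue in sham at day 6, and replicate 3 of CAP at day 6 is blue where replicates 1 and 2 are paler.

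The first comparison asked how the genes differed between day 6 and day 3 in sham wounds. G2/M genes were lower at day 6 across all their roles, while G1/S genes differed little. The threshold of the study, an unadjusted p under 0.05 together with a 2-fold difference, was passed by 0 of the 54 genes in this and each of the other comparisons. Of all genes tested, 3.75% passed it here, 2.79% between the days with CAP, 1.58% and 3.8% between CAP and sham at day 3 and at day 6, and 4.90% for the interaction. At an unadjusted p under 0.05 alone (limma on log2(TPM + 0.1), 18368 genes tested), 32 of 35 G2/M genes were lower, against 7.91% of all genes tested. The median log2 difference over the G2/M genes was -0.57, a 1.48-fold lower level, against 0.00 over all genes.

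After Benjamini-Hochberg adjustment over all genes, 9 G2/M genes fell at an adjusted p under 0.05 (1.14% of all genes tested fell), and 0 rose. They were Cdc20, Anln, Kif2c, Tpx2, Plk1, Kif23, Ccna2, Ccnb2 and Aurka. Cdc20, the activator of the anaphase-promoting complex that ends metaphase, stood at 46.1, 49.2 and 54.7 TPM at day 3 and at 29.9, 26.5 and 31.6 TPM at day 6. All its day 6 libraries lay below all its day 3 libraries, and it fell by 0.77 ± 0.10 (SE) on the log2 scale (adjusted p = 0.0210).

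Anln, the actin-binding scaffold of the cleavage furrow, read 35.5, 33.7 and 35.6 TPM at day 3 against 21.9, 19.9 and 23.5 TPM at day 6, and it fell by 0.68 ± 0.09 on the log2 scale (adjusted p = 0.0210). The kinesins of this set act at both ends of mitosis. Kif2c, which depolymerises microtubules at centromeres, fell from 16.3, 16.0 and 18.3 TPM to 10.8, 8.75 and 10.5 TPM. Kif23, a motor of the central spindle, fell from 20.6, 21.1 and 22.7 TPM to 14.1, 12.2 and 15.2 TPM. Neither kinesin had overlapping groups.

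Of the 10 G2/M cyclins and kinases, 9 were lower at an unadjusted p under 0.05 and 4 of those fell at an adjusted p under 0.05. Ccnb2, a B-type cyclin that activates Cdk1, showed the largest difference of all 54 genes in this comparison. It read 34.2, 34.8 and 40.1 TPM at day 3 and 23.2, 15.5 and 21.7 TPM at day 6, and it fell by 0.87 ± 0.16 on the log2 scale (adjusted p = 0.0463). Plk1, a kinase of mitotic entry and spindle assembly, fell from 31.3, 36.9 and 32.7 TPM to 17.9, 17.9 and 23.7 TPM. Aurka, the kinase of centrosome maturation, fell from 18.4, 17.3 and 15.6 TPM to 8.17, 9.43 and 11.8 TPM. In each of the 3 the day 6 libraries lay below every day 3 library, as they did in 32 of the 35 G2/M genes (10.6% of all genes tested).

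The marker of cycling cells and the main chromosome enzyme belonged to the genes that were lower without passing the adjusted threshold. Mki67, whose product coats mitotic chromosomes, read 38.0, 41.3 and 42.6 TPM at day 3 and 30.0, 25.5 and 33.6 TPM at day 6 (log2 difference -0.46 ± 0.12, adjusted p = 0.11). Top2a, the topoisomerase that untangles sister chromatids, read 44.8, 48.9 and 47.0 TPM and then 33.3, 32 and 41.4 TPM (log2 difference -0.41 ± 0.11, adjusted p = 0.137). Both genes had groups that did not overlap. Ccnb1, the other B-type cyclin of the list, had a log2 difference of -0.59 ± 0.18 (adjusted p = 0.166), and Foxm1, the forkhead factor of G2/M transcription, one of -0.48 ± 0.15 (adjusted p = 0.171).

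The 3 G2/M genes at an unadjusted p of 0.05 or more were Cdk1, Cenpe and Mybl2. Cdk1, the kinase that B-type cyclins activate, read 12.2, 12.2 and 16.8 TPM at day 3 and 14, 13.1 and 15.4 TPM at day 6, a log2 difference of 0.05 ± 0.15. It was the only one of the 35 above 0. Cenpe, a kinetochore kinesin, had a log2 difference of -0.24 ± 0.15, and Mybl2, which encodes B-MYB, one of -0.20 ± 0.13.

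Among the 19 G1/S genes the median log2 difference was -0.13, and 2 were lower at an unadjusted p under 0.05. Rrm1, the large subunit of ribonucleotide reductase, read 53.1, 57.5 and 57.5 TPM at day 3 and 38.7, 42.5 and 50.001 TPM at day 6 (log2 difference -0.36 ± 0.11, adjusted p = 0.161). Uhrf1, which recruits the maintenance DNA methyltransferase behind the replication fork, had a log2 difference of -0.33 ± 0.11 (adjusted p = 0.192). None of the 10 licensing and helicase genes was among them at an unadjusted p under 0.05. Their log2 differences ran from -0.30 for Cdc45 to 0.03 for Gins2, with Mcm2 at -0.13 ± 0.12. Pcna, at 101, 109 and 111 TPM at day 3 and 105, 106 and 111 TPM at day 6, had a log2 difference of 0.00 ± 0.08, Rrm2 one of -0.18 ± 0.13, Ccne1 one of -0.25 ± 0.12 and E2f1 one of -0.02 ± 0.11.

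The count of 32 was 28 to 32 when each library was left out in turn and 31 to 32 under the other settings tried. The count of 9 was smaller under many of them. Without sham replicate 1, 2 or 3 of day 3 it was 2, 0 and 0, without sham replicate 1, 2 or 3 of day 6 it was 0, 3 and 2, and in a joint fit of all 12 libraries it was 0. The G1/S count of 2 became 1 without sham replicate 2 or 3 of day 3 or replicate 1 of day 6. Markers of other cells moved alongside. The summed TPM of 9 keratinocyte markers ran from 40764 to 59948 at day 3 and from 30413 to 36867 at day 6, and 4 of the 9 were lower at an unadjusted p under 0.05. Krt14, Krt16, Krt6a and Dsg3 were lower in every day 6 library than in every day 3 library. Krt10, Krt1, Krt5, Trp63 and Col17a1 overlapped between the days, so the lower sum was not shared by all keratinocyte markers. Endothelial markers were higher in 6 of 6 (summed TPM 90.5 to 119 and then 233 to 320), erythroid markers in 6 of 6 tested of 8 (516 to 755 and then 2116 to 5627), fibroblast markers in 4 of 8 (15445 to 23812 and then 20823 to 27531), and muscle markers were lower in 7 of 7 tested of 8 (3667 to 5426 and then 2307 to 3369). None of these markers was at 0 in every library, and their part in the result was not tested.

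**Figure D2:**
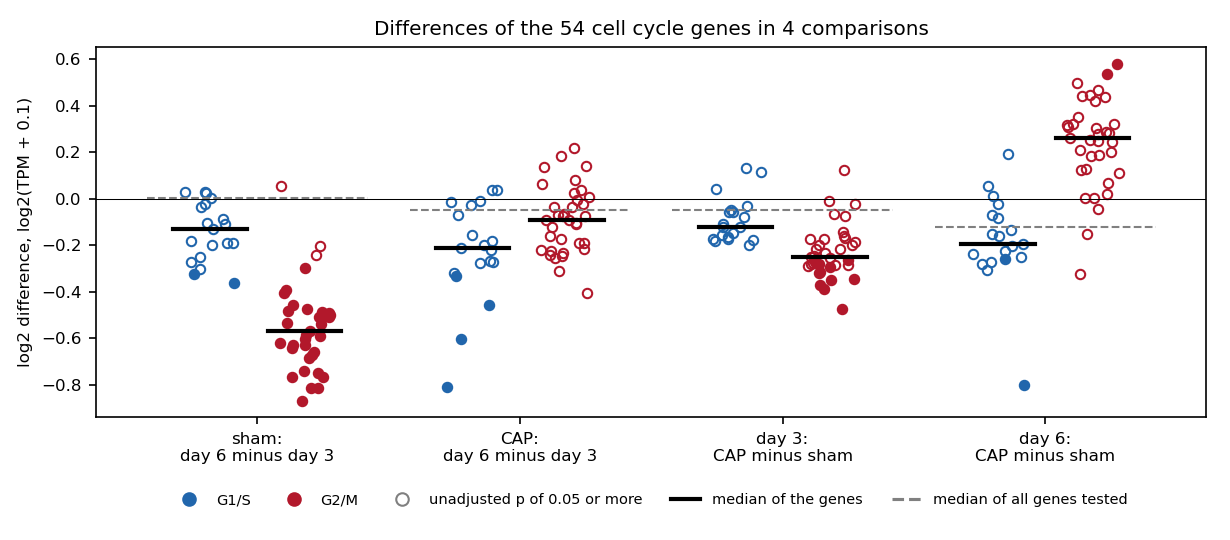
Log2 differences, on the log2(TPM + 0.1) scale, of the 19 G1/S genes (blue) and 35 G2/M genes (red) in 4 comparisons, 1 point a gene, filled at an unadjusted p under 0.05. Black bars are the medians of the genes (G2/M -0.57, -0.09, -0.25 and 0.26 from left to right) and dashed lines the medians of all genes tested, and the comparisons share groups of libraries.

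The second comparison set day 6 against day 3 in CAP-treated wounds. Few genes differed at the unadjusted threshold. At an unadjusted p under 0.05, 4 of 19 G1/S genes were lower at day 6 and 0 of 35 G2/M genes, against 5.91% of 18202 genes tested by limma. The lowest adjusted p among the 54 was 0.295, so none passed after adjustment (0.00549% of all genes did as lower). The median log2 difference was -0.21 over the G1/S genes, -0.09 over the G2/M genes and -0.05 over all genes.

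Gins2, a subunit of the GINS complex of the replicative helicase, read 10.1, 10.3 and 6.51 TPM in CAP-treated wounds at day 3 and 5.31, 4.26 and 5.40 TPM at day 6. The groups did not overlap, and the log2 difference was -0.81 ± 0.22 (adjusted p = 0.316). Without replicate 3 of CAP at day 3 it was -1.03, past the 2-fold threshold (adjusted p = 0.278). Cdt1, which loads the helicase onto origins and is destroyed once S phase begins, read 22.7, 20.8 and 22.9 TPM and then 13.0, 14.2 and 16.5 TPM (log2 difference -0.60 ± 0.13, adjusted p = 0.295). Pcna read 117, 114 and 116 TPM and then 82.8, 93.2 and 99.8 TPM (log2 difference -0.33 ± 0.10, adjusted p = 0.345). Ccne1, cyclin E1 of S phase entry, read 10.6, 10.5 and 7.92 TPM and then 7.35, 6.27 and 7.34 TPM (log2 difference -0.46 ± 0.17, adjusted p = 0.386). In all 4 genes each day 6 library lay below each day 3 library, a pattern that 9.63% of all genes tested showed.

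The minichromosome maintenance (MCM) genes, whose 6 products form the ring of the helicase, had log2 differences from -0.28 ± 0.17 for Mcm2 to -0.01 ± 0.14 for Mcm7. For Mcm2 the libraries overlapped, with 38.3, 34.4 and 25.4 TPM at day 3 and 28.4, 24.6 and 27.0 TPM at day 6. Rrm2, the small subunit of ribonucleotide reductase, had a log2 difference of -0.22 ± 0.17, E2f1 one of -0.16 ± 0.19, and Tyms, thymidylate synthase, was the highest G1/S gene at 0.04 ± 0.17.

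For the G2/M genes the libraries of CAP at day 6 diverged from each other. Cdc20 read 45.5, 42.8 and 37.9 TPM at day 3 and 41.2, 61.5 and 25.0 TPM at day 6, so that 1 day 6 library lay above and 1 below all day 3 libraries. Replicate 2 of day 6 exceeded every CAP day 3 library in 16 of the 35 G2/M genes, and replicate 3 lay below every one of them in 30. Mki67 had a log2 difference of -0.04 ± 0.16, Top2a one of 0.14 ± 0.19, Ccnb1 one of -0.16 ± 0.23, Cdk1 one of -0.22 ± 0.24 and Foxm1 one of -0.09 ± 0.17. The G2/M range ran from -0.41 ± 0.20 for Cenpe to 0.22 ± 0.22 for Nusap1, a microtubule-bundling protein of the spindle.

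The count of 4 was 9 without replicate 3 of CAP at day 3 and 2 without replicate 1 of CAP at day 6, and it was 3 without replicate 2 of CAP at day 6. The G2/M count of 0 became 2 without replicate 1 of CAP at day 6. The share of all genes at that p with a library left out is not given. Over all genes, the count past the 2-fold threshold was 382 to 886 without single libraries and 507 with all. For the G2/M genes the median was -0.25 without replicate 2 of CAP at day 6, 0.10 without replicate 3 of that group and 0.0052 without replicate 1 of CAP at day 3. The G1/S median was -0.33 without replicate 3 of CAP at day 3 and -0.18 without replicate 2 of CAP at day 6. Keratinocyte markers summed to 32517 to 61349 TPM at day 3 and 46983 to 97178 TPM at day 6, with 2 of 9 higher and 2 of 9 lower at an unadjusted p under 0.05. The share of all genes higher in this comparison is not given, so the counts of higher markers stand without a background. Markers of T and NK cells were higher in 6 of 7 tested of 8 (25.7 to 34.6 and then 69.7 to 84.9 TPM), and muscle markers were lower in 3 of 7 tested (1925 to 5333 and then 1777 to 2477 TPM). Fibroblast markers were higher in 4 of 8 (10895 to 16316 and then 16800 to 22846 TPM), and neutrophil markers were lower in 2 of 6 tested of 7 (1932 to 4928 and then 353.5 to 2752 TPM). Their part in the result was not tested.

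**Figure D3:**
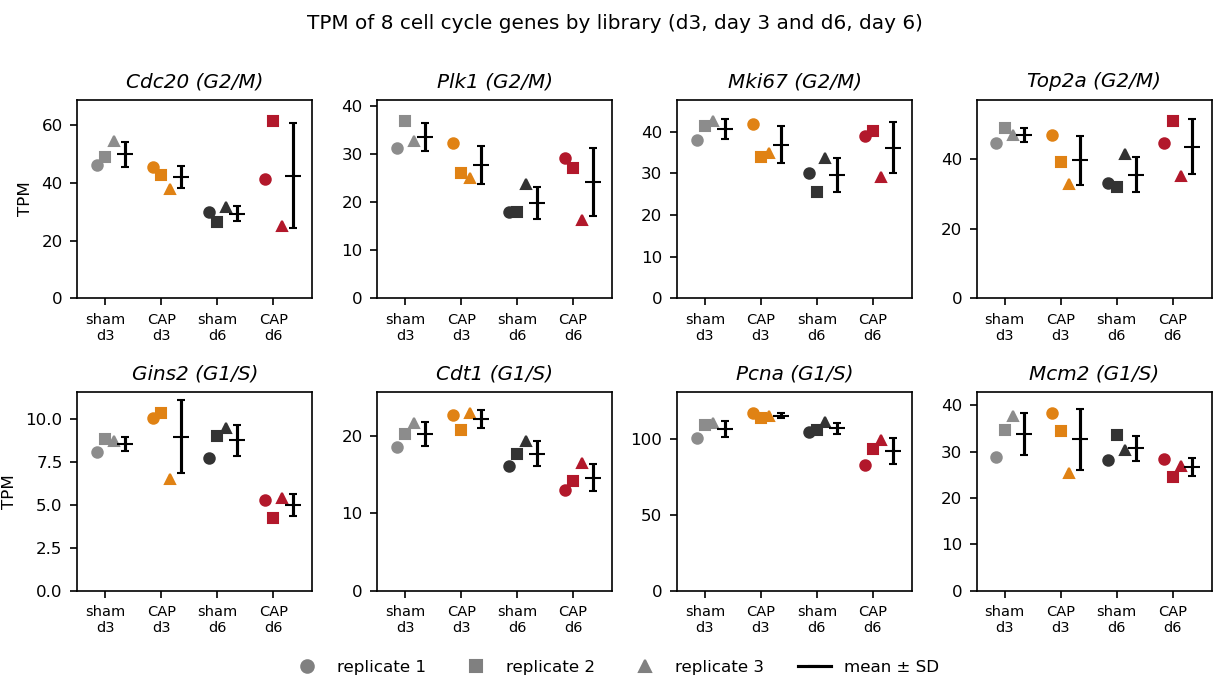
TPM (axes from 0) of 4 G2/M genes (top) and 4 G1/S genes (bottom) in sham and CAP-treated wounds at day 3 (d3) and day 6 (d6), 1 symbol a replicate, with the mean ± SD of 3 libraries in black. Cdc20 and Plk1 are lower in every sham day 6 library than in every sham day 3 library, CAP at day 6 spreads widely for the G2/M genes (Cdc20 25.0 to 61.5 TPM), and Gins2 is lowest in the 3 CAP day 6 libraries (4.26 to 5.40 TPM).

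The third comparison set CAP against sham wounds at day 3, which shares the sham libraries with the first. Most G2/M genes were somewhat lower with CAP. A difference below 0 was found for 34 of 35 G2/M genes (62.2% of 18330 genes tested), and their median log2 difference was -0.25, a 1.19-fold lower level, against -0.05 over all genes. At an unadjusted p under 0.05, 10 G2/M genes were lower and 0 higher, against 5.14% of all genes lower and 1.46% higher. The lowest adjusted p of the 54 genes was 0.568 by limma, so none passed after adjustment (0% of all genes did as lower and 0.0164% as higher).

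The 10 were Anln, Ccna2, Tpx2, Kif2c, Ccnb2, Foxm1, Cdca3, Melk, Ube2c and Bub1. Kif2c was the lowest, with 16.3, 16.0 and 18.3 TPM in sham wounds and 15.1, 11 and 10.7 TPM in CAP-treated wounds (log2 difference -0.47 ± 0.16, adjusted p = 0.692). Anln read 35.5, 33.7 and 35.6 TPM and 30.1, 25.2 and 27.3 TPM (log2 difference -0.35 ± 0.10, adjusted p = 0.568). Foxm1 read 20.4, 18.1 and 19.5 TPM and 17.1, 12 and 15.5 TPM (log2 difference -0.39 ± 0.15, adjusted p = 0.732). The CAP libraries lay below all sham libraries in 14 of the 35 G2/M genes, these 3 included (8.75% of all genes tested).

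Mki67 overlapped between the groups, with 38.0, 41.3 and 42.6 TPM in sham wounds and 42, 34.0 and 34.8 TPM with CAP (log2 difference -0.14 ± 0.11). Top2a had a log2 difference of -0.26 ± 0.14, Ccnb1 one of -0.08 ± 0.10 and Cdk1 one of 0.12 ± 0.20, the highest of the G2/M genes. Replicate 1 of CAP lay close to the sham libraries, and replicates 2 and 3 lay lower. The mean log2 level over the 35 G2/M genes was 4.37, 4.41 and 4.45 in sham wounds and 4.36, 4.07 and 4.11 in CAP-treated wounds.

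Among the G1/S genes 0 were lower or higher at an unadjusted p under 0.05, and the median log2 difference was -0.12. Pcna was the one gene whose groups did not overlap, at 101, 109 and 111 TPM in sham wounds and 117, 114 and 116 TPM with CAP (log2 difference 0.11 ± 0.08, adjusted p = 0.865), as 2.86% of all genes tested were higher without overlap. The range ran from -0.20 ± 0.18 for Cdc6 to 0.13 ± 0.10 for Cdt1, with Mcm2 at -0.06 ± 0.18, Rrm2 at -0.12 ± 0.18, Ccne1 at -0.03 ± 0.15 and E2f1 at -0.17 ± 0.13.

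The count of 10 depended on single libraries and on scaling. It was 6 and 1 without sham replicates 2 and 3, and 21, 3 and 6 without CAP replicates 1, 2 and 3. The G1/S count of 0 became 2 without CAP replicate 1. The share of all genes at that p with a library left out is not given. Over all genes, the count past the 2-fold threshold was 204 to 510 without single libraries and 290 with all. The G2/M count of 10 was 6 after median-ratio scaling or quantile normalization and 1 in a joint fit of all 12 libraries. Fibroblast markers were lower in 3 of 8 (15445 to 23812 TPM in sham and 10895 to 16316 TPM with CAP), T and NK cell markers in 4 of 7 tested of 8 (33.5 to 43.3 and 25.7 to 34.6 TPM), and erythroid markers were higher in 5 of 7 tested of 8 (516 to 755 and 2359 to 2804 TPM). Macrophage and monocyte markers were lower in 2 of 7 and higher in 0 (summed TPM 3873 to 5481 in sham and 4536 to 9885 with CAP). Ly6c2 read 53.9, 87.0 and 79.8 TPM in sham and 30.4, 16.5 and 4.16 TPM with CAP. Ccr2 read 107, 78.0 and 91.3 TPM and 49.2, 34.4 and 28.2 TPM. The other genes of that list overlapped between the groups. Of 9 keratinocyte markers 0 differed at an unadjusted p under 0.05. Their part in the result was not tested.

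**Figure D4:**
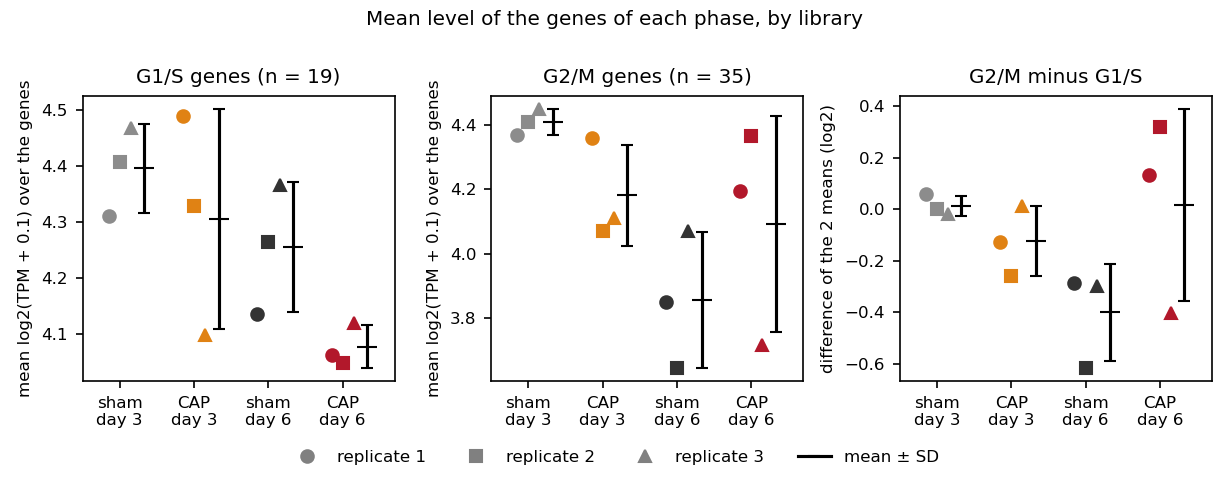
Mean log2(TPM + 0.1) over the G1/S genes (left), over the G2/M genes (middle) and the difference of both (right) in each of the 12 libraries, with the mean ± SD of each group in black. The G2/M mean is lowest in sham at day 6 (3.65 to 4.07) apart from replicate 3 of CAP at day 6 (3.72), and the G1/S mean of CAP at day 6 (4.05 to 4.12) lies below that of every other library except replicate 3 of CAP at day 3 (4.10).

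The fourth comparison set CAP against sham wounds at day 6 and shares its libraries with the first and second comparisons. The median of the G2/M genes lay above 0 here, whereas that of all genes lay below 0. The median of the G1/S genes lay on the same side as that of all genes. Few single genes passed a test. A difference above 0 was found for 32 of 35 G2/M genes (34.3% of 18323 genes tested) and a difference below 0 for 16 of 19 G1/S genes (65.7% of genes tested). The median log2 difference was 0.26 over the G2/M genes and -0.20 over the G1/S genes. Over all genes it was -0.12. Median-ratio scaling moved the median of all genes to -0.01 and that of the G2/M genes to 0.38, and with quantile normalization the median of the G1/S genes was -0.06. No gene of the 54, and 0% of all genes, passed after adjustment by limma.

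At an unadjusted p under 0.05, 2 G2/M genes were higher (6.67% of all genes tested were) and 2 G1/S genes were lower (12.5% of all genes tested were), shares near the background. Kif23 read 14.1, 12.2 and 15.2 TPM in sham wounds and 18.8, 27.2 and 15.8 TPM with CAP, and it was the one G2/M gene whose groups did not overlap, against 8.01% of all genes tested that were higher so (log2 difference 0.54 ± 0.21, adjusted p = 0.243). Nusap1 read 9.78, 9.10 and 12.9 TPM and 16.3, 20.5 and 11.6 TPM (log2 difference 0.58 ± 0.24, adjusted p = 0.25).

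Gins2 had the lowest p of the 54 genes in this comparison. It read 7.74, 9.04 and 9.51 TPM in sham wounds and 5.31, 4.26 and 5.40 TPM with CAP, with no overlap (log2 difference -0.80 ± 0.17, adjusted p = 0.205). Mcm4, a helicase ring subunit, read 31.3, 36.3 and 33.1 TPM and 29.1, 26.6 and 28.3 TPM (log2 difference -0.26 ± 0.10, adjusted p = 0.243). Each CAP library lay below each sham library in 7 of the 19 G1/S genes, these 2 included, against 18% of all genes tested. Pcna had a log2 difference of -0.23 ± 0.10, Mcm2 one of -0.20 ± 0.11, Rrm2 one of -0.16 ± 0.13, Ccne1 one of -0.24 ± 0.15, E2f1 one of -0.31 ± 0.17 and Rrm1, the highest G1/S gene, one of 0.19 ± 0.14.

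The 3 CAP libraries did not behave alike for the G2/M genes. Replicates 1 and 2 exceeded every sham day 6 library in 26 and 28 of the 35 genes, and replicate 3 did so in 1. Mki67 read 30.0, 25.5 and 33.6 TPM in sham wounds and 39.1, 40.2 and 29.2 TPM with CAP (log2 difference 0.28 ± 0.17). Top2a read 33.3, 32 and 41.4 TPM and 44.7, 51.0 and 35.2 TPM (log2 difference 0.29 ± 0.17). Cdc20 had a log2 difference of 0.45 ± 0.30, Ccnb1 one of 0.35 ± 0.27, Foxm1 one of 0.00 ± 0.17, Cdk1 one of -0.15 ± 0.20 and Cenpe, the lowest, one of -0.32 ± 0.21.

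The G2/M median of 0.26 was 0.43 without replicate 3 of CAP, 0.13 without replicate 2 of CAP and 0.18 to 0.37 without any 1 of the other libraries. Without replicate 2 of CAP, 28 of 35 G2/M genes lay above 0 and 17 of 19 G1/S genes below 0. The G1/S median of -0.20 was -0.11 without replicate 3 of sham, -0.16 without replicate 2 of CAP and otherwise -0.24 to -0.15. Without replicate 3 of CAP, 23 G2/M genes were higher at an unadjusted p under 0.05, but the share of all genes in that setting is not given. Gins2 was then lower at an adjusted p of 0.0474 by limma. Its unadjusted p was 0.00325, against 0.00189 with all libraries. Over all genes tested, the count past the 2-fold threshold was 311 to 1483 without single libraries and 697 with all. Without replicate 1 or 2 of CAP, or replicate 1 or 2 of sham, the G2/M count was 0, and without replicate 3 of sham it was 3. The G1/S count of 2 became 1 without sham replicates 2 or 3 or CAP replicates 1 or 2, and 5 without CAP replicate 3.

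The sum of the keratinocyte markers had the same order as the G2/M mean over the 3 CAP libraries. Their summed TPM was 72882, 97178 and 46983 in CAP replicates 1, 2 and 3 against 30413 to 36867 in sham wounds, and 3 of 9 were higher at an unadjusted p under 0.05. In replicate 2, Krt10 and Krt1, keratins of the differentiating layers, made up 40801 and 29718 TPM of the sum. Krt14, Krt16, Krt6a, Dsg3, Col17a1 and Trp63 did not share that order and were highest in replicate 1 of CAP. In sham wounds at day 6, replicate 2 had the highest sum (36867 TPM) and the lowest G2/M mean (3.65). Endothelial markers were lower in 3 of 6 (233 to 320 TPM in sham and 75.3 to 197 TPM with CAP), fibroblast and macrophage markers in 2 of 8 (20823 to 27531 and 16800 to 22846 TPM) and 2 of 7 (6802 to 9896 and 4061 to 9095 TPM), and neutrophil markers in 1 of 6 tested of 7, with replicate 2 of CAP at 353.5 TPM. Their part in the result was not tested.

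**Figure D5:**
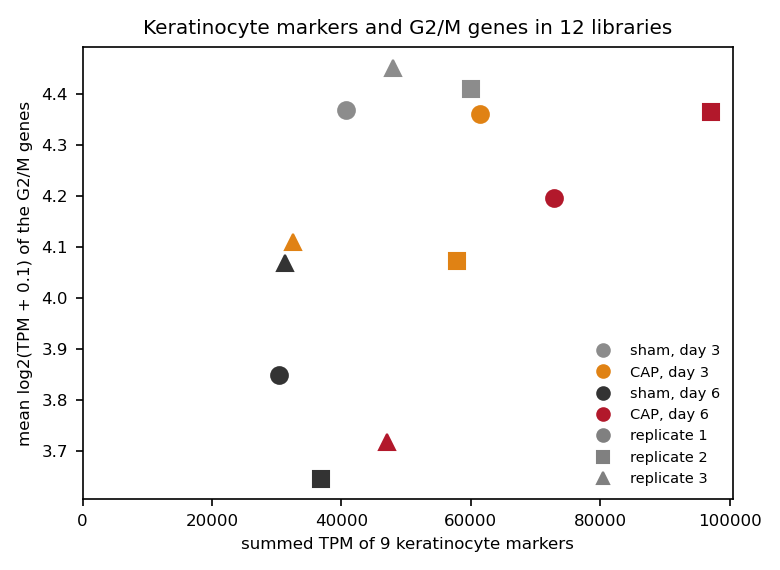
Mean log2(TPM + 0.1) of the 35 G2/M genes against the summed TPM of 9 keratinocyte markers, 1 point for each of the 12 libraries, coloured by group with the replicate as the symbol. Among the 3 CAP day 6 libraries the order is the same on both axes (46983 with 3.72, 72882 with 4.20 and 97178 with 4.36), whereas the sham day 3 libraries are high in G2/M (4.37 to 4.45) at 40764 to 59948 TPM. In sham at day 6 the library with the highest sum (36867) has the lowest G2/M mean (3.65).

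The difference between both CAP effects was tested directly as the interaction of treatment and day over all 12 libraries (20267 genes). For the G2/M genes the CAP effect at day 6 lay above that at day 3 by a median of 0.53 on the log2 scale, against -0.06 over all genes. It was higher at an unadjusted p under 0.05 for 12 G2/M genes (5.43% of all genes) and lower for 3 G1/S genes (5.88% of all genes). All adjusted p were at least 0.428 by limma, so no gene passed after adjustment. The count of 12 was 26 without replicate 3 of CAP at day 6, and it was 4 or 5 without replicate 1 or 2 of that group. Without replicate 2 of CAP at day 3 or replicate 2 of sham at day 6 it was 4, and without replicates 2 or 3 of sham at day 3 it was 7. Without replicate 3 of CAP at day 3 or replicate 1 of sham at day 6 it was 8. The share of all genes at that p with a library left out is not given. Over all genes, the count past the 2-fold threshold was 657 to 1777 without single libraries and 994 with all. The G2/M median was 0.38 without replicate 2 of CAP at day 6 and 0.38 to 0.70 over all libraries left out. In the same contrast erythroid markers were lower in 5 of 8 at an unadjusted p under 0.05 (median log2 difference -3.20), T and NK cell markers were higher in 3 of 7 tested of 8, neutrophil markers were lower in 2 of 7 and keratinocyte markers were higher in 2 of 9. Their part in the result was not tested.

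Kif23, Nusap1 and Kif11, the motor that pushes spindle poles apart, had the 3 lowest p of the kinesin, spindle and cytokinesis genes, and 6 of the 10 kinesin, spindle and cytokinesis genes were among the 12. For Kif11 the libraries read 12.7, 14.4 and 13.8 TPM (sham) and 13.2, 11 and 11.5 TPM (CAP) at day 3, and 10.2, 7.74 and 11.6 TPM (sham) and 13.5, 16.3 and 11.1 TPM (CAP) at day 6. The CAP effect was -0.20 ± 0.12 at day 3 and 0.47 ± 0.21 at day 6, and the difference was 0.67 ± 0.24 (adjusted p = 0.428). For G2/M genes named in every comparison the differences were 0.54 ± 0.23 for Top2a, 0.42 ± 0.21 for Mki67, 0.43 ± 0.31 for Ccnb1, 0.39 ± 0.23 for Foxm1 and -0.27 ± 0.30 for Cdk1. For the corresponding G1/S genes they were -0.34 ± 0.12 for Pcna, -0.21 ± 0.20 for Ccne1, -0.14 ± 0.22 for Mcm2, -0.13 ± 0.22 for E2f1 and -0.04 ± 0.23 for Rrm2. Above 0 lay 6 of the 19 G1/S genes, with Rrm1 the highest at 0.35 ± 0.18, Tyms at 0.23 ± 0.22 and Ccne2 at 0.14 ± 0.21. The lowest G1/S gene was Gins2 at -0.84 ± 0.26, and the highest G2/M gene was Cdca3 at 0.78 ± 0.33.

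Across the 4 groups, the group mean was highest in sham at day 3 for 32 of 35 G2/M genes and lowest in sham at day 6 for 31. For the G1/S genes it was highest in sham at day 3 for 14 of 19 and lowest in CAP at day 6 for 16. The mean log2 level of the G2/M genes minus that of the G1/S genes was 0.01 ± 0.04 in sham at day 3, -0.12 ± 0.14 in CAP at day 3, -0.40 ± 0.19 in sham at day 6 and 0.02 ± 0.37 in CAP at day 6. The last group held both the highest and nearly the lowest library, with 0.13, 0.32 and -0.40, so its mean describes none of its libraries.

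Over 10% of the 31-base transcript stretches were shared with another gene in 8 of the 54, namely Ccnb1, Mcm7, Cdc20, Uhrf1, Pcna, Mybl2, Plk1 and Rrm2 (12% to 27.7%). The partner is named as a pseudogene for Pcna (Pcna-ps2) and Plk1 (Plk-ps1). Another annotated gene overlaps 27 of the 54 on either strand. No source read here says how reads were divided in those cases or whether strand was used, so these values are less certain.

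Other genes of the cell cycle were read from lists that hold none of the 54. No gene of these lists passed the 2-fold threshold with an unadjusted p under 0.05 in any comparison. Between the days in sham wounds, 15 of 31 other G2/M genes were lower at an unadjusted p under 0.05 (7.91% of all genes) and 3 fell at an adjusted p under 0.05 (1.14% of all genes), with a median log2 difference of -0.34. Of the other S phase genes 2 of 30 were lower, a share near that of all genes, with a median of -0.06. The 3 were Tacc3, a stabiliser of spindle microtubules, Ckap2l, a mitotic spindle protein, and Jpt1. Tacc3 fell from 34.1, 35 and 35.6 TPM to 23.4, 22.4 and 25.9 TPM. For CAP against sham at day 3, 30 of the 31 other G2/M genes lay below 0 (62.2% of all genes), with a median of -0.16. At day 6 the pattern was weaker than in the 35 G2/M genes. There 18 of the 31 lay above 0 (34.3% of all genes) and 13 below, with a median of 0.06. For the interaction their median was 0.18, against -0.06 over all genes.

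The D-type cyclins and their kinases act before S phase. In sham wounds, Ccnd1 had a day 6 minus day 3 log2 difference of 0.02, Ccnd2 one of 0.08, Ccnd3 one of -0.25 and Cdk4 one of 0.16. Cdk6 was the lowest of its list at -0.39, with 18.5, 19.4 and 17.9 TPM at day 3 and 14.6, 15.4 and 12.6 TPM at day 6. Of the 8 genes of that list, 2 were lower at an unadjusted p under 0.05 (7.91% of all genes) and 0 were higher (8.05% of all genes). With CAP at day 6 all 8 genes of the list of G1 cyclins and kinases were below sham (65.7% of all genes were), and 3 of them at an unadjusted p under 0.05 (12.5% of all genes). Ccnd1 read 49.9, 51.6 and 51.7 TPM in sham wounds and 39.3, 39.6 and 33.4 TPM with CAP (log2 difference -0.45, adjusted p = 0.205). Ccnd2 read 53.7, 45.3 and 43.4 TPM and 33.9, 29.6 and 37.3 TPM (log2 difference -0.50, adjusted p = 0.208). Neither pair of groups overlapped, as was so for 18% of all genes in this direction.

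The inhibitors of cyclin-dependent kinases showed no common direction. Cdkn1a (p21), a target of p53, was the most abundant, at 226, 195 and 209 TPM in sham at day 3, and its log2 differences in the 4 comparisons between groups ran from -0.11 to 0.10. Cdkn1b (p27) had differences from -0.07 to 0.14. Cdkn1c (p57) read 46.4, 47.5 and 53.8 TPM in sham and 44.8, 25.3 and 29.1 TPM in CAP at day 3 (log2 difference -0.61, adjusted p = 0.692). Cdkn2c (p18), an inhibitor of Cdk4 and Cdk6, was the one inhibitor that differed at day 6 at an unadjusted p under 0.05, at 20.9, 17.2 and 24.8 TPM in sham and 30.1, 33.8 and 27.5 TPM in CAP at day 6 (log2 difference 0.55, adjusted p = 0.212). At day 3 it read 26.8, 32.7 and 27.0 TPM in sham and 24.3, 22.2 and 28.4 TPM in CAP. Every sham library of day 6 lay below every sham library of day 3. Cdkn2b and Cdkn2d had adjusted p of at least 0.385 in every comparison, and the group means of Cdkn2a ran from 0.164 to 0.380 TPM.

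In the remaining lists few genes differed at an unadjusted p under 0.05. In sham wounds between the days, 3 of 11 genes of the RB and E2F family were lower (7.91% of all genes) and 1 was higher (8.05% of all genes). E2f7, a repressor of the E2F class, was the lowest at -0.57 (adjusted p = 0.0568). Of 12 genes of the anaphase-promoting complex and its inhibitor, Fbxo5, the inhibitor, was the 1 gene lower (log2 difference -0.36, adjusted p = 0.201), and of 5 genes of the MuvB complex 0 differed. With CAP at day 6, the counts were 1 of 11, 1 of 12 and 0 of 5, all lower, against 12.5% of all genes.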

How the data were processed

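RNA of 12 wound libraries was sequenced as paired ends. The values are TPM per gene, which the authors made with StringTie 2.1.4 after bcl2fastq 2.20 and Trimmomatic 0.36 on mm10, and deposited as tables. For the aligner, annotation release and strand setting nothing was given in the sources used here. Coordinates of all 54 genes equal those of GENCODE M21. The tables write 0.0001 where a gene has no expression.

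Each comparison was fitted with limma 3.58.1 (R 4.3.3) on log2(TPM + 0.1) over all genes averaging 0.3 TPM or more in each group compared, only the libraries compared entering, and p-values were adjusted by Benjamini-Hochberg over all genes tested. The interaction was fitted over all 12 libraries. Fold changes on this scale understate those of low genes. The threshold was an unadjusted p under 0.05 with a 2-fold difference. An exact permutation test of 3 against 3 libraries cannot go below 0.1 and was not used for calls. The fit was tested on simulated data. RefSeq promoters were searched for exact letters.

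The genes and lists were chosen with earlier results of these data known. Named in every comparison were Mki67, Top2a, Ccnb1, Cdk1, Foxm1, Mcm2, Pcna, Rrm2, Ccne1 and E2f1, the highest and lowest gene of each phase and up to 10 genes past the threshold, and, from the other lists, the inhibitors and G1 cyclins. Any other gene was named after its values were seen, mostly because it passed the adjusted or unadjusted p. Alternatives were a pseudocount of 1 TPM, another or no filter, median-ratio scaling, quantile normalization, a replicate block, a joint fit and leaving out each library.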

Additional observations from a re-analysis of the deposited data

Results flagged for a closer look

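The difference between the CAP effect at day 6 and the CAP effect at day 3 was tested for every gene, and 15 of the 54 genes had an unadjusted p under 0.05 (limma, adjusted p at least 0.428 in each), against 5.43% of all 20267 genes tested that were higher and 5.88% that were lower. Values are differences of the 2 log2 effects, day 6 minus day 3.

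The CAP effect was lower at day 6 for 3 G1/S genes, with -0.84 for Gins2, -0.41 for Cdt1 and -0.34 for Pcna. It was higher at day 6 for 12 G2/M genes. Of these, the kinesin, spindle and cytokinesis genes were Nusap1 at 0.76, Kif23 at 0.71, Kif11 at 0.67, Prc1 at 0.64, Anln at 0.59 and Kif4 at 0.54. The cyclins and kinases were Ccna2 at 0.62 and Aurka at 0.60. The others were Cdca3 at 0.78, which acts in mitotic entry, Birc5 at 0.63, the survivin subunit of the passenger complex, Ncapd2 at 0.57, a condensin subunit, and Top2a at 0.54. Over the 15 genes the unadjusted p ran from 0.00729 to 0.0441.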

How the results depend on the processing

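In sham wounds between the days, the 9 genes at an adjusted p under 0.05 became 1 without the filter (Anln), 0 in the joint fit, and 0 to 3 when each library was left out, and the G1/S count of 2 became 1 to 3. For CAP against sham at day 3, the G2/M count of 10 became 6 after median-ratio scaling, 6 after quantile normalization, 1 in the joint fit and 1 to 21 without single libraries, and the G1/S count of 0 became 0 to 2. At day 6, the G2/M count of 2 became 1 without the filter, 4 after median-ratio scaling, 4 in the joint fit and 0 to 23 without single libraries. The G1/S count of 2 became 1 after median-ratio scaling, 1 after quantile normalization, 4 in the joint fit and 1 to 5 without single libraries, the adjusted count of 0 became 0 to 1, and the G1/S median of -0.20 became -0.059 after quantile normalization. Between the days with CAP, the G2/M count of 0 became 2 in the joint fit and 0 to 2 without single libraries, the G1/S count of 4 became 2 to 9, and the genes past the 2-fold threshold 0 to 1. Without single libraries the G1/S median ran from -0.20 to -0.027 at day 3, -0.20 to -0.072 in sham wounds, -0.33 to -0.14 with CAP and -0.16 to 0.062 in the interaction. For the interaction the G2/M count of 12 became 4 to 26, and the genes past the threshold 0 to 4. Over all genes tested, the count past the threshold also moved without single libraries. It ran from 204 to 510 for CAP against sham at day 3, 311 to 1483 at day 6 and 657 to 1777 for the interaction. Fewer samples or another set of genes tested enter where a library or the filter is left out, and otherwise the cause was not tested.

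Same-numbered libraries had deviations correlated at -0.11 to 0.22 and differently numbered ones at -0.22 to 0.19. The replicate numbers were therefore not taken to pair samples. With the replicate block, the adjusted sham count was 5, the G2/M count for CAP against sham at day 6 was 0 and that for the days with CAP was 1.

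Small differences changed sign. Ccne1 at day 3 was 0.022 after median-ratio scaling and 0.047 after quantile normalization, Mki67 between the days with CAP 0.0031 and 0.012, and Rrm2 in the interaction 0.013 and 0.011. When each library was left out, the log2 differences at day 3 ran from -0.11 to 0.10 for Ccne1, -0.18 to 0.11 for Mcm2, -0.040 to 0.28 for Cdk1 and -0.22 to 0.066 for Rrm2, and at day 6 from -0.11 to 0.15 for Foxm1. In sham wounds they ran from -0.024 to 0.21 for Cdk1, -0.030 to 0.12 for Gins2, -0.038 to 0.032 for Pcna and -0.094 to 0.051 for E2f1. Between the days with CAP they ran from -0.24 to 0.016 for Foxm1, -0.12 to 0.11 for Mki67, -0.084 to 0.17 for Tyms and -0.37 to 0.087 for Ccnb1, and in the interaction from -0.23 to 0.064 for Rrm2. TPM carries no read number, so what depth limits cannot be given.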
